A study of Mus musculus with 12 samples.

Results

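The nuclear-encoded respiratory chain genes are the genes of the cell nucleus whose products make up or help assemble the 5 enzyme complexes of mitochondrial oxidative phosphorylation. They were chosen by symbol alone: a gene with its own probe set whose symbol begins with Nduf (complex I), is Sdha, Sdhb, Sdhc or Sdhd (complex II), or begins with Uqcr (complex III), Cox4 to Cox8 (complex IV, cytochrome c oxidase) or Atp5 (complex V, ATP synthase). The rule found 87 genes of 22180, and no expression value entered it except that the brightest probe set was kept for the 9 genes with several. Of these, 85 passed the filter on dim signals that left 20135 genes for testing. Cox7b2 and Ndufaf6 did not pass. The expression of these genes was measured on 12 microarrays of RNA from sorted epithelial cells of the prostate, taken from 4 male mice that were wild-type and hormone-naïve and whose age the labels do not give. The cells were negative for the lineage markers CD45, CD31 and Ter119 and came from 3 sorting gates, each split by the surface protein LY6D into LY6D+ and LY6D- cells: Sca1-high CD49f-positive cells of mice 1 and 5, basal cells (Sca1-intermediate, CD49f-positive) of mice 3 and 5, and luminal cells (Sca1-low, CD49f-low) of mice 4 and 5. Each of the 6 groups thus held 2 libraries, each gate held 4, and mouse 5 was the one mouse with libraries in every gate.

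Complex I passes electrons from NADH, and complex II from succinate, to ubiquinone. Complex III passes them on to cytochrome c and complex IV to oxygen. The protons pumped on the way drive ATP synthase. Most subunits are encoded in the nucleus and a few core subunits in mitochondrial DNA. The mitochondrially encoded genes were not analysed here. Secretory luminal cells of the prostate are known for an unusual mitochondrial economy, in which zinc holds back the use of citrate so that it can be secreted.

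All levels below are log2 signals as deposited, gate values are means ± SD over 4 libraries of 2 mice, and differences are log2 ± SE from limma with Benjamini-Hochberg adjustment over the 20135 genes. Levels of different genes come from different probe sets and were not set against each other. The shares of all genes given beside the members' counts are not matched for signal. In every library the median of all genes was lower than that of the members. The p-values rest on the spread between the 2 libraries of each group, which came from 2 mice. Libraries of 1 mouse entered the fit as independent. The 4 libraries of a gate thus counted for more than their 2 mice, and the pairing of LY6D+ and LY6D- libraries was not used. With 2 arrays a group, precision is limited by their number. In bulk RNA, fewer cells of a type and less RNA per cell cannot be told apart.

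The labels were checked against marker genes. The median of 8 basal markers was 5.42 to 5.89 in Sca1-high, 6.37 to 7.78 in basal and 5.21 to 6.10 in luminal libraries, and 8 of 8 averaged higher in basal than in luminal cells. The luminal markers separated these 2 gates less clearly. Their median was 7.499 ± 1.28 in Sca1-high, 8.72 ± 1.03 in basal and 8.58 ± 0.47 in luminal libraries, and 6 of 8 averaged lower in basal than in luminal cells. Pbsn (probasin, a luminal secretory protein) averaged 9.59 ± 2.03 in basal and 13.00 ± 0.15 in luminal libraries, while Foxa1, a transcription factor of luminal cells, averaged 8.09 ± 0.43 and 6.54 ± 0.57. Markers of cells that the sort should remove were present. The median of 8 endothelial markers was 5.32 to 8.61 in Sca1-high, 4.11 to 7.97 in basal and 4.20 to 4.64 in luminal libraries, and that of 9 myeloid markers was 4.41 to 7.56, 3.76 to 5.29 and 7.96 to 8.90. The 4 erythroid markers listed had none that could be tested, and no marker on this scale read 0. The LY6D+ Sca1-high library of mouse 5 stood apart: its luminal marker median was 5.69, against 7.24 to 9.51 in the other 11 libraries, while its endothelial median of 8.61 was the highest of the 12. The counts, role medians and leading members of the Sca1-high gate are therefore also given without that library. Endothelial signal was not confined to it: Emcn read 9.08 to 11.2 in the 4 Sca1-high and at most 5.68 in luminal libraries. Between these gates Emcn differed by 5.69 (limma adjusted p = 0.0203), while Egfl7 averaged 4.62 and 4.59. The myeloid markers Mrc1, Cd68 and Ctss were lower in basal than in luminal cells (limma adjusted p = 0.0244, 0.0403 and 0.0470). The part of such cells in the members' gate differences was not tested.

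Promoters are shown for 5 members described below whose windows held an NRF1 or ETS match, chosen after their values and matches were seen, because respiratory chain genes are known as targets of the nuclear respiratory factors NRF1 and NRF2 (NRF2 being an ETS-family complex of GABP subunits). The windows run from 250 bases before to 50 bases after each transcription start (RefSeq, GRCm38.p6). They were available for 72 of the 87 members, with 77 windows against 32851 for all genes. The NRF1 core CGCATGCG, a palindrome, was found in 11 member windows (14.29%) and in 1.87% of all windows. The ETS motif CCGGAAG was found in 19 member windows (24.7%) and in 8.86% of all, and the YY1 motif AAGATGGC in 10 (13.0%) and in 2.75%. The GC box GGGCGG was found in 35 (45.5%) and in 35.7%, and the TATA box TATAAA in 9 (11.7%) and in 13.6%. Both strands were searched, and different motifs overlapped in 1 member window. A match describes the letters in the window and shows no binding. The windows of Ndufa1, Ndufv2 and Ndufa6, also described below, held neither an NRF1 nor an ETS match. Stretches of 180 bases are given 5′ to 3′ on the gene's strand, with NRF1 and ETS matches in capitals, the ETS match appearing as CTTCCGG where it lies on the other strand. The gene for the complex I assembly factor Ndufaf4 (chr4:24897903-24898082, plus strand) and that for the complex I subunit Ndufa11 (chr17:56717582-56717761, plus strand) carried the NRF1 core. Ndufb7, also of complex I (chr8:83566578-83566757, plus strand), and the ATP synthase subunit gene Atp5h (chr11:115419920-115420099, minus strand) carried an ETS match, and the cytochrome c oxidase gene Cox6a1 (chr5:115348959-115349138, minus strand) carried both.
Ndufaf4: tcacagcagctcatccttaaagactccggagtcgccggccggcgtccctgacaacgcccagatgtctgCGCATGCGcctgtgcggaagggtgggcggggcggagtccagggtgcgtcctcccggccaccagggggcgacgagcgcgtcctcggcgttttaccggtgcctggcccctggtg
Ndufa11: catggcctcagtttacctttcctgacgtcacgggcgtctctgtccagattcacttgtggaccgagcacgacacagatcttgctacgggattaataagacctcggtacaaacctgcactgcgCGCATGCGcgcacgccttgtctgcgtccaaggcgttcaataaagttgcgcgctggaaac
Ndufb7: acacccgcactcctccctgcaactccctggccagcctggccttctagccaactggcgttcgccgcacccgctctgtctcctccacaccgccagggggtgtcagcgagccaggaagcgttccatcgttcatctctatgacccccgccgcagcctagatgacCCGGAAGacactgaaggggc
Cox6a1: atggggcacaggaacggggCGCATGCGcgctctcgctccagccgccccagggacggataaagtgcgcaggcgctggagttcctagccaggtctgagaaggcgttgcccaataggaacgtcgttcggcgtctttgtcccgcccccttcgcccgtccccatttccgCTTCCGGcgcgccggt
Atp5h: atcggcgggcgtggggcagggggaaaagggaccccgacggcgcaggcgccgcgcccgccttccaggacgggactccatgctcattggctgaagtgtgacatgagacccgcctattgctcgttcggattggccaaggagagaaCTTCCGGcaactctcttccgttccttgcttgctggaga

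In the deposited values the members as a whole were lowest in the Sca1-high gate. The median of the 85 members was 5.59 ± 0.27 in Sca1-high, 6.0 ± 0.36 in basal and 6.08 ± 0.24 in luminal libraries, while the median of all 20135 genes was 4.29, 4.18 and 4.24. In single libraries the member median was 5.69 and 5.19 in LY6D+ and 5.80 and 5.69 in LY6D- Sca1-high cells (first mouse 1, then mouse 5). It was 6.18 and 6.29 in LY6D+ and 5.49 and 6.04 in LY6D- basal cells (mouse 3, then mouse 5), and 6.08 and 5.96 in LY6D+ and 5.87 and 6.41 in LY6D- luminal cells (mouse 4, then mouse 5). The 4 Sca1-high libraries all lay below the 4 luminal ones, and the basal libraries overlapped both. The lowest of the 12 was the LY6D+ Sca1-high library of mouse 5, and the next lowest the LY6D- basal library of mouse 3. After quantile normalization the members' median difference of Sca1-high from basal cells was near 0 (-8.94e-04). Those of Sca1-high and of basal from luminal cells were then -0.18 and -0.17.

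**Figure D1:**
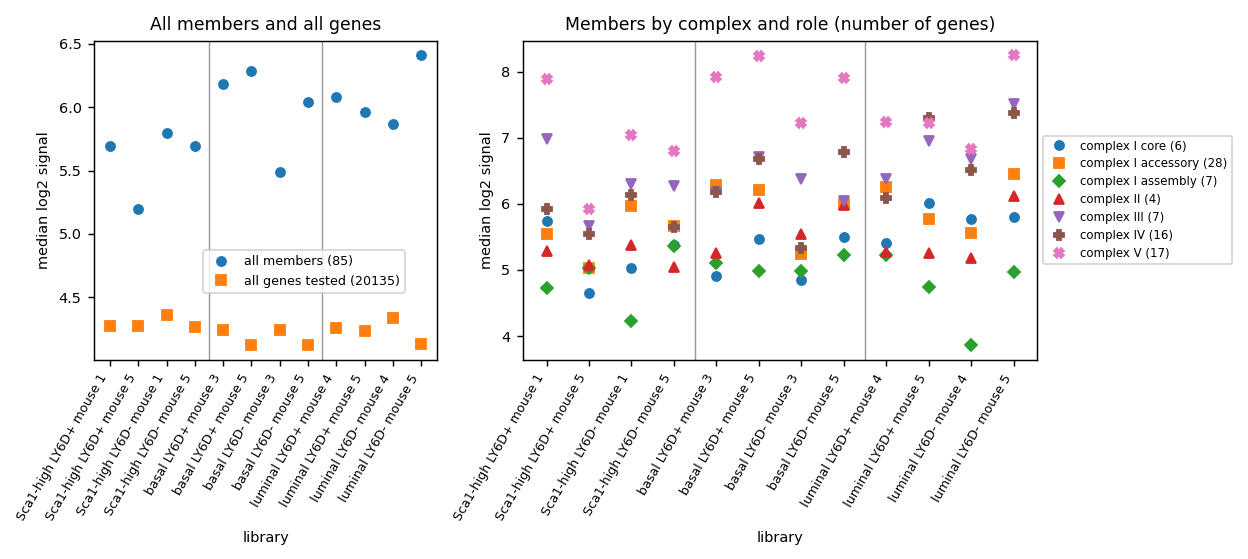
Median log2 signal of the 85 respiratory chain members in each of the 12 libraries, beside the median of all 20135 genes tested (left), and the median of each complex or role (right). The members' median ran between 5.19 and 6.41, with the Sca1-high libraries at the low end, while the medians of all genes lay close together.

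**Figure D2:**
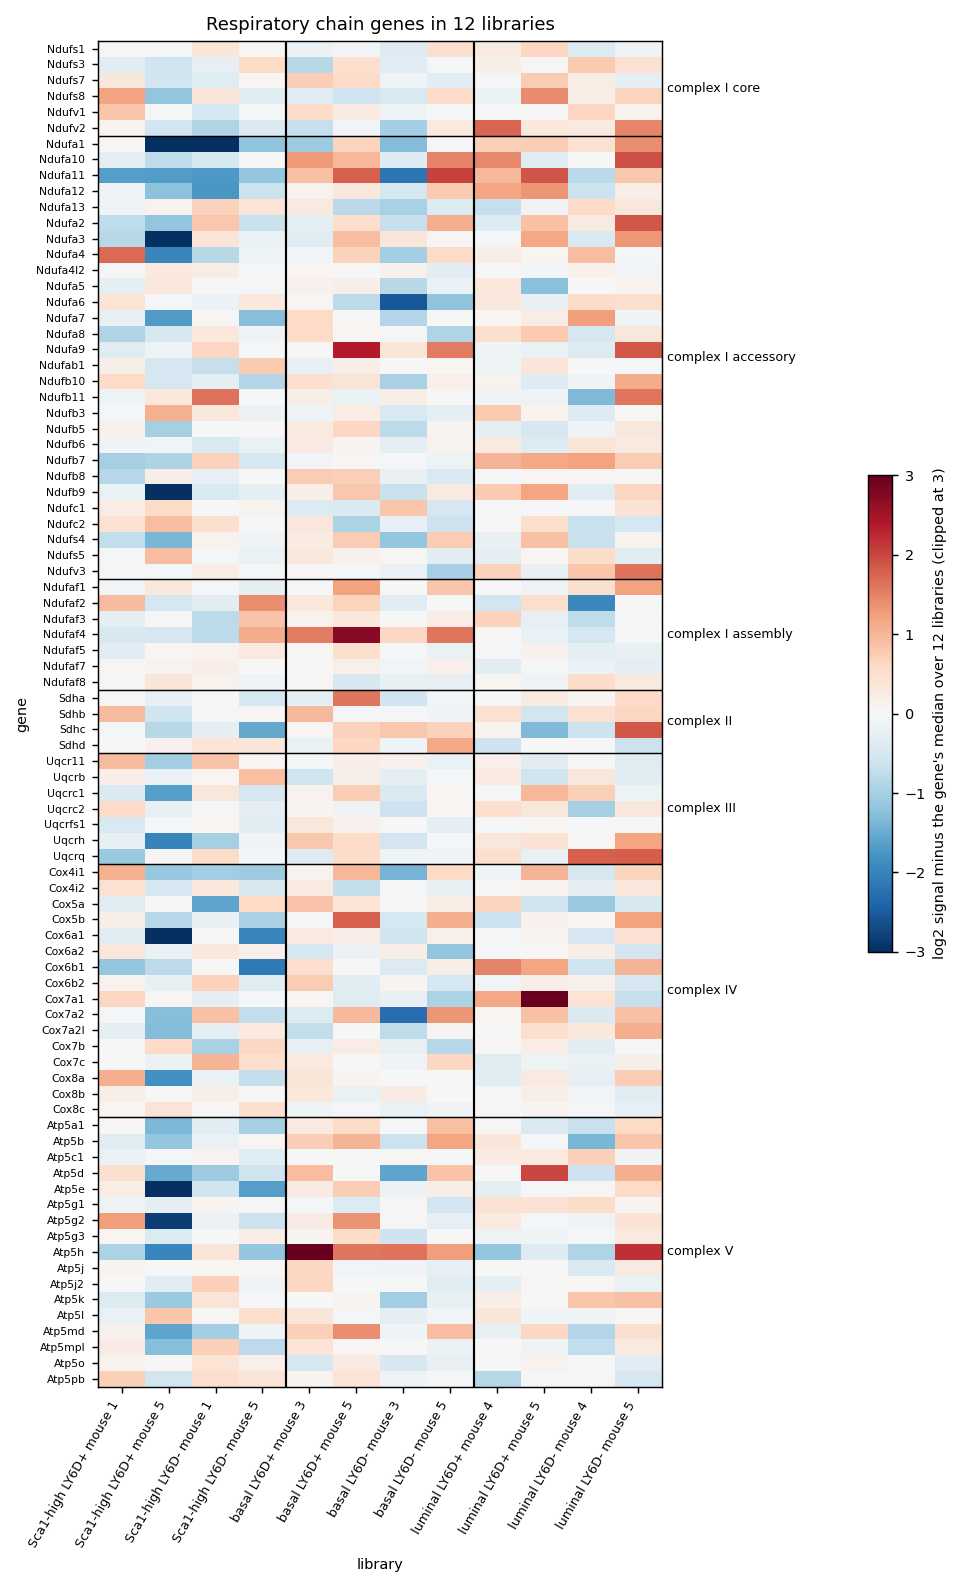
Log2 signal of each of the 85 members minus that member's own median over the 12 libraries, ordered by complex, with colours held at 3 either side of 0. The LY6D+ Sca1-high library of mouse 5 shows most of the deepest decreases, in members of complexes I, III, IV and V.

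Between Sca1-high and luminal cells, most members read lower in Sca1-high cells, but none passed the threshold. Of the 85 members, 29 lay above 0 (34.1%), with a median of -0.29, while 59.8% of all genes lay above 0 (median 0.07). At an adjusted p under 0.05, limma called 0 members and 0.139% of all genes. At an unadjusted p under 0.05, 16 members were lower (18.8%) and 0 were higher, against 4.38% and 4.03% of all genes (8.41% together). Without the LY6D+ Sca1-high library of mouse 5 the median was -0.10, with 36 members above 0, 11 lower and 2 higher at an unadjusted p under 0.05 (3.15% and 2.96% of all genes). Without the LY6D- luminal library of mouse 5 it was -0.18, with 34 above 0. After quantile normalization of all arrays the median was -0.18, with 35 members above 0 and a median of 0.03 for all genes. Within mouse 5 alone, that is with mouse as a fixed block, the median was -0.52 and 26 members lay above 0.

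By role, the medians of Sca1-high against luminal cells lay below 0 for every complex and above 0 for the assembly factors of complex I. They were -0.40 for the 6 core subunits of complex I (1 above 0), -0.39 for its 28 accessory subunits (8 above 0) and 0.04 for the 7 assembly factors (5 above 0). Roles were given by symbol, so that the accessory subunits here and below include Ndufa4, since assigned to complex IV, and its relative Ndufa4l2. Complex II had a median of -0.29 (1 of 4 above 0), complex III of -0.19 (2 of 7), complex IV of -0.31 (7 of 16) and complex V of -0.42 (5 of 17). Without the LY6D+ Sca1-high library of mouse 5 the median of the complex I core was -0.02 with 3 of 6 above 0, and that of complex V was -0.16 with 8 of 17 above 0. The medians of complexes II, III and IV were then -0.06, -0.29 and -0.06, that of the accessory subunits of complex I -0.33 and that of its assembly factors 0.02. No test compares these roles with each other.

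Ndufb7, an accessory subunit of the membrane arm of complex I, had the smallest p among the members, and is named because its values were seen to stand out. In this and the following sentences the libraries are given as LY6D+ of the first mouse and of mouse 5, then LY6D- of the same mice. Ndufb7 read 4.27, 4.34, 5.96 and 4.75 in Sca1-high, 5.19, 5.30, 5.23 and 5.11 in basal and 6.29, 6.43, 6.47 and 6.03 in luminal libraries. The luminal libraries lay above all 8 others. The difference of Sca1-high from luminal cells was -1.48 ± 0.26 (limma adjusted p = 0.105; -1.498 without the LY6D+ Sca1-high library of mouse 5), and that of basal from luminal cells -1.10 ± 0.26 (adjusted p = 0.155). The LY6D- Sca1-high library of mouse 1, at 5.96, was the one of its gate nearest the luminal libraries. Without it the difference of Sca1-high from luminal cells was -1.78.

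Ndufa1, a small accessory subunit needed for the assembly of complex I, had the largest difference of the 85 members between Sca1-high and luminal cells. It read 9.55, 5.11, 6.33 and 8.31 in Sca1-high and 10.23, 10.24, 9.97 and 10.90 in luminal libraries, with 8.42, 10.16, 8.21 and 9.46 in basal ones. All Sca1-high libraries lay below all luminal ones, with a spread of over 4 log2 units among themselves. The difference was -3.01 ± 0.90 (limma adjusted p = 0.383). It was -1.90 without the LY6D+ Sca1-high library of mouse 5, and -4.12 without that of mouse 1, when the library that stands apart is the one left in its group.

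Further members of the electron-carrying complexes read lower in Sca1-high than in luminal cells. Ndufv2, an iron-sulfur core subunit of complex I, averaged 4.98 ± 0.41 in Sca1-high and 6.38 ± 0.77 in luminal libraries, which did not overlap (-1.41 ± 0.44, limma adjusted p = 0.406, and -1.24 without the LY6D+ Sca1-high library of mouse 5). Uqcrh, the hinge protein of complex III, read 6.98, 5.18, 6.20 and 7.08 in Sca1-high against 7.53, 7.64, 7.24 and 8.39 in luminal libraries (-1.34 ± 0.42, limma adjusted p = 0.406, and -0.89 without the LY6D+ Sca1-high library of mouse 5). Cox6b1, a cytochrome c oxidase subunit on the intermembrane side, read 6.19, 6.55, 7.33 and 5.22 in Sca1-high against 8.82, 8.52, 6.75 and 8.35 in luminal libraries. Its LY6D- luminal library of mouse 4 lay inside the Sca1-high range, and the difference was -1.79 ± 0.48 (limma adjusted p = 0.333), or -1.88 without the LY6D+ library of mouse 5.

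In ATP synthase the lowest member in Sca1-high against luminal cells was Atp5e, the epsilon subunit of the central stalk. It read 10.08, 5.93, 9.27 and 8.22 in Sca1-high libraries, 10.12, 10.59, 9.70 and 10.06 in basal and 9.58, 9.82, 9.91 and 10.46 in luminal ones. One Sca1-high library, LY6D+ of mouse 1, lay within the luminal range. The difference from luminal cells was -1.57 ± 0.73 (limma adjusted p = 0.610). It was -0.53 without the LY6D+ Sca1-high library of mouse 5, and -2.61 without that of mouse 1. Ndufb9, an accessory subunit of complex I named after its values were seen, differed by -2.75 without the library of mouse 1, against -0.84 without that of mouse 5.

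Members that read higher in Sca1-high than in luminal cells differed by less. By role the highest were Ndufs1, a core subunit of complex I (0.01), Ndufc2 among the accessory subunits (0.65), the assembly factor Ndufaf2 (0.86), the membrane anchor Sdhd of complex II (0.54), Uqcr11 of complex III (0.34, and 0.84 without the LY6D+ Sca1-high library of mouse 5), Cox7c of complex IV (0.49) and Atp5pb, the b subunit of the ATP synthase stalk (0.61). None of these had an unadjusted p under 0.05. Counted by libraries, 6 members lay lower in all Sca1-high than in all luminal libraries (Atp5g1, Ndufa1, Ndufa11, Ndufb7, Ndufv2 and Uqcrh), against 2.48% of all genes, and 1 lay higher (Ndufaf7), against 3.57%. Ndufaf7 is among the dim members, near the filter.

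**Figure D3:**
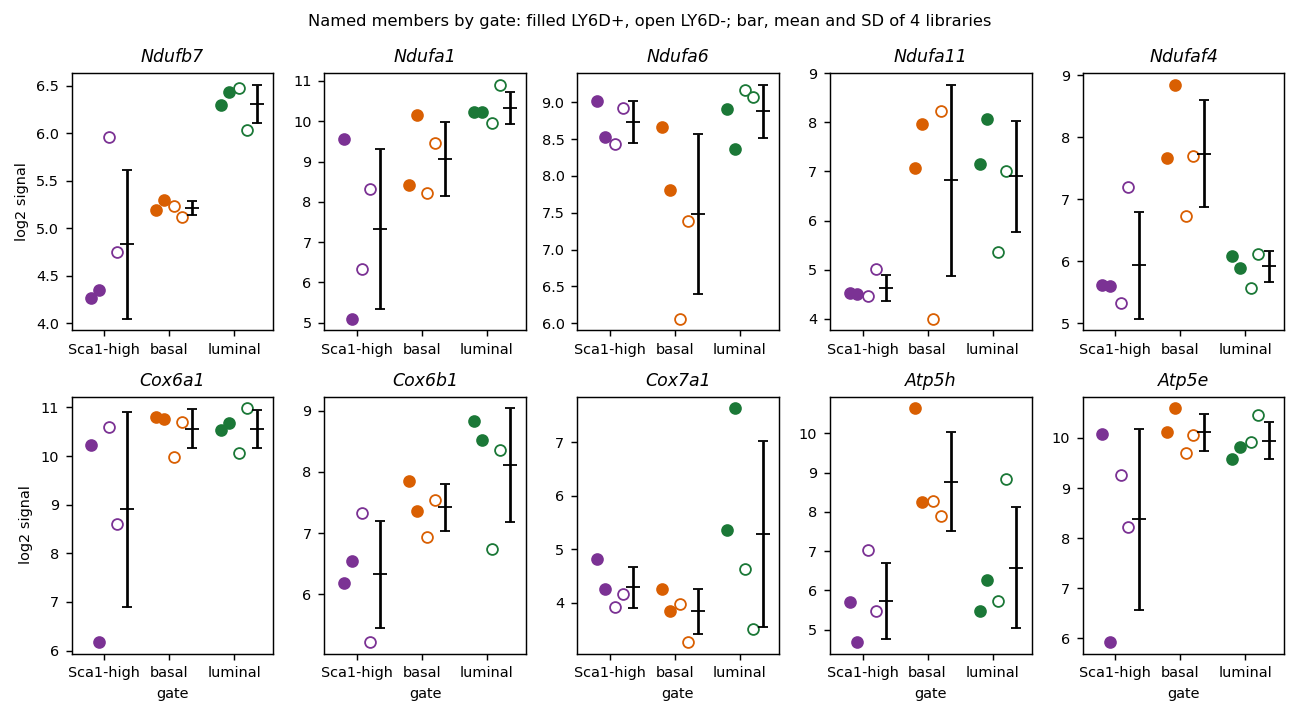
Log2 signal of 10 members in every library, by gate (Sca1-high, basal, luminal), with filled points for LY6D+, open points for LY6D- and bars for the mean and SD of 4 libraries. Ndufb7 is highest in luminal libraries, Ndufaf4 and Atp5h have their highest mean in basal libraries, and Ndufa1, Cox6a1 and Atp5e spread widely in the Sca1-high gate.

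Between Sca1-high and basal cells, more members again read lower in Sca1-high cells, led by Atp5h and Ndufaf4, and none passed the threshold. The median of the 85 members was -0.13 with 31 above 0, against 0.11 and 64.2% above 0 for all genes. limma called 0 members and 0.00993% of all genes at an adjusted p under 0.05. At an unadjusted p under 0.05, 9 members were lower and 3 higher (14.1% together), against 5.32% and 4.50% of all genes (9.83% together). Without the LY6D+ Sca1-high library of mouse 5 the direction of the median turned: it was 0.01, with 45 members above 0, 4 lower and 2 higher at an unadjusted p under 0.05 (4.16% and 3.38% of all genes), shares near those of all genes. Quantile normalization of the arrays also left the median at 0 (-8.94e-04, 42 above 0), while centring each array on its median, which moves the median of all genes by 0.11, gave -0.24.

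Atp5h, the d subunit of the peripheral stalk of ATP synthase, had the largest difference of the 85 members between Sca1-high and basal cells. It read 5.69, 4.69, 7.04 and 5.49 in Sca1-high and 10.64, 8.26, 8.29 and 7.91 in basal libraries, with 5.49, 6.26, 5.74 and 8.84 in luminal ones. No Sca1-high library reached the lowest basal one, and 1 luminal library, LY6D- of mouse 5, lay within the basal range. The difference of Sca1-high from basal cells was -3.05 ± 0.74 (limma adjusted p = 0.276), -2.80 without the LY6D+ Sca1-high library of mouse 5 and -2.99 within mouse 5. A second, dimmer probe set of Atp5h averaged 3.65 in Sca1-high and 3.34 in basal libraries, a difference of 0.31 in the other direction.

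Ndufaf4, a factor that helps build the complex I arm holding the quinone site, read 5.62, 5.60, 5.32 and 7.21 in Sca1-high, 7.67, 8.84, 6.73 and 7.70 in basal and 6.08, 5.89, 5.57 and 6.13 in luminal libraries. All basal libraries lay above all luminal ones, and 1 Sca1-high library, LY6D- of mouse 5, lay within the basal range. The difference of Sca1-high from basal cells was -1.80 ± 0.44 (limma adjusted p = 0.276) with or without the LY6D+ Sca1-high library of mouse 5, and that of basal from luminal cells 1.82 ± 0.44 (limma adjusted p = 0.157).

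Ndufa11, a membrane-arm subunit of complex I, was low and even in Sca1-high cells. It read 4.53, 4.50, 4.46 and 5.02 in Sca1-high, 7.07, 7.97, 4.01 and 8.24 in basal and 7.16, 8.06, 5.37 and 7.0 in luminal libraries. The LY6D- basal library of mouse 3 was the lowest of the 12, while the other 3 basal and the 4 luminal libraries lay above every Sca1-high one. The difference of Sca1-high from basal cells was -2.19 ± 0.79 (limma adjusted p = 0.451), and -2.18 without the LY6D+ Sca1-high library of mouse 5. It was -3.25 without the LY6D- basal library of mouse 3, the one that ran against the difference. A dimmer probe set of Ndufa11 differed by -0.45 between the same gates and by 0.02 between Sca1-high and luminal cells, against -2.27 for the brighter one.

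Ndufa6, a complex I subunit that carries the mitochondrial acyl carrier protein, ran the other way. It read 9.02, 8.54, 8.44 and 8.93 in Sca1-high, 8.67, 7.81, 6.06 and 7.39 in basal and 8.91, 8.37, 9.17 and 9.08 in luminal libraries. The 4 Sca1-high and 4 luminal libraries shared 1 range, and 3 of the 4 basal libraries lay below it. The difference of Sca1-high from basal cells was 1.25 ± 0.33 (limma adjusted p = 0.334), or 1.37 without the LY6D+ Sca1-high library of mouse 5, and that of basal from luminal cells -1.40 ± 0.33 (limma adjusted p = 0.155).

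In the other complexes the members with the largest differences of Sca1-high from basal cells were as follows. Sdhc, a membrane anchor of complex II, read 5.34, 4.58, 5.13 and 3.87 in Sca1-high against 5.46, 6.10, 6.21 and 6.08 in basal libraries, without overlap (-1.24 ± 0.56, limma adjusted p = 0.511, and -1.05 without the LY6D+ Sca1-high library of mouse 5). All 4 subunits of complex II lay below 0, with a median of -0.25, and 3 of the 4 did without that library (-0.23). Uqcrh differed by -1.03 ± 0.42 (-0.58 without that library), and Cox6a1, the broadly expressed form of a cytochrome c oxidase subunit, by -1.66 ± 0.78 (limma adjusted p = 0.517). Cox6a1 read 10.23, 6.18, 10.59 and 8.61 in Sca1-high against 10.81, 10.76, 9.97 and 10.71 in basal libraries, and its difference was -0.64 without the LY6D+ Sca1-high library of mouse 5. On the higher side the leading members of their roles were Ndufs8 (0.23, and 0.83 without that library), Ndufaf8 (0.30), Uqcrb (0.43), Cox6a2 (0.57) and Atp5o (0.40). The gates did not overlap for 2 members that were lower in Sca1-high cells (Atp5h and Sdhc, against 2.26% of all genes) and 1 that was higher (Cox8c, against 4.77%). Cox8c was dim, near the filter at 2.98. It read 3.58 in the LY6D+ Sca1-high library of mouse 5 and had a median of 3.17 over the other 11 libraries.

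Within mouse 5, 1 member passed the threshold between Sca1-high and basal cells, as did 80 of all genes against 2 without the block. It was Cox5b, a zinc-binding subunit of cytochrome c oxidase, at -2.35 (limma adjusted p = 0.0416), against -1.04 over both mice. Its second, dimmer probe set ran the other way in mouse 5, with 7.22 and 6.60 in Sca1-high against 5.98 and 5.85 in basal libraries (LY6D+, then LY6D-), and over both mice it differed by 0.16. Within mouse 5, 104 genes passed between Sca1-high and luminal cells against 28 without the block, none of them a member. As the gate differences of this fit come from mouse 5 alone, its p-values do not measure how a gate difference varies between mice.

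Between basal and luminal cells the members as a whole lay close to all genes in the deposited values, and single members differed in both directions. Their median was -0.08 with 37 of 85 above 0, against -0.03 and 45.8% above 0 for all genes. It was -0.02 after centring. After quantile normalization it was -0.17 with 28 above 0, against -0.00376 for all genes. limma called 0 members and 0.417% of all genes. At an unadjusted p under 0.05, 9 members were lower and 2 higher (12.9% together), against 4.58% and 4.86% of all genes (9.44% together). By role, the median was -0.33 for the complex I core (1 of 6 above 0), -0.20 for the accessory subunits (8 of 28), 0.25 for the assembly factors (6 of 7), 0.26 for complex II (2 of 4), -0.19 for complex III (2 of 7), -0.14 for complex IV (7 of 16) and 0.17 for complex V (11 of 17). These roles were not tested against each other, and the assembly factors again include the dim Ndufaf1, Ndufaf5 and Ndufaf7. The assembly factors kept 6 of 7 above 0 after centring, after quantile normalization and within mouse 5, and 5 of 7 without the basal LY6D+, basal LY6D- and luminal LY6D- libraries of mouse 5, 3 libraries that stand apart on the first principal component.

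The members behind these counts were spread over the chain. On the lower side in basal cells, beside Ndufa6 and Ndufb7, stood Ndufv3 of the NADH-binding module (-1.04), Ndufv2 (-1.33 ± 0.44), Uqcrq, a small subunit of complex III (-0.99 ± 0.33), and Cox7a1, the heart and skeletal muscle form of a cytochrome c oxidase subunit (-1.45 ± 0.47). The value of Cox7a1 was -0.88 without the LY6D+ luminal library of mouse 5. Atp5k, the e subunit of ATP synthase, averaged 8.89 ± 0.51 in basal and 9.67 ± 0.44 in luminal libraries (-0.78 ± 0.24, limma adjusted p = 0.304). On the higher side stood Ndufaf4 and Atp5h. The difference of Atp5h was 2.19 ± 0.74 (limma adjusted p = 0.351), and 0.53 within mouse 5, whose LY6D- luminal library read 8.84. For Sdhd (0.69), Ndufa9 (0.81) and Cox5a (0.75) the unadjusted p was above 0.05. The gates did not overlap for Ndufaf4, which was higher in basal cells (2.58% of all genes), and for Ndufb7 and Atp5g1, which were lower (3.17%). Atp5g1, which encodes 1 of several precursors of the c subunit of the rotor, differed by -0.64 ± 0.21 (limma adjusted p = 0.327).

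**Figure D4:**
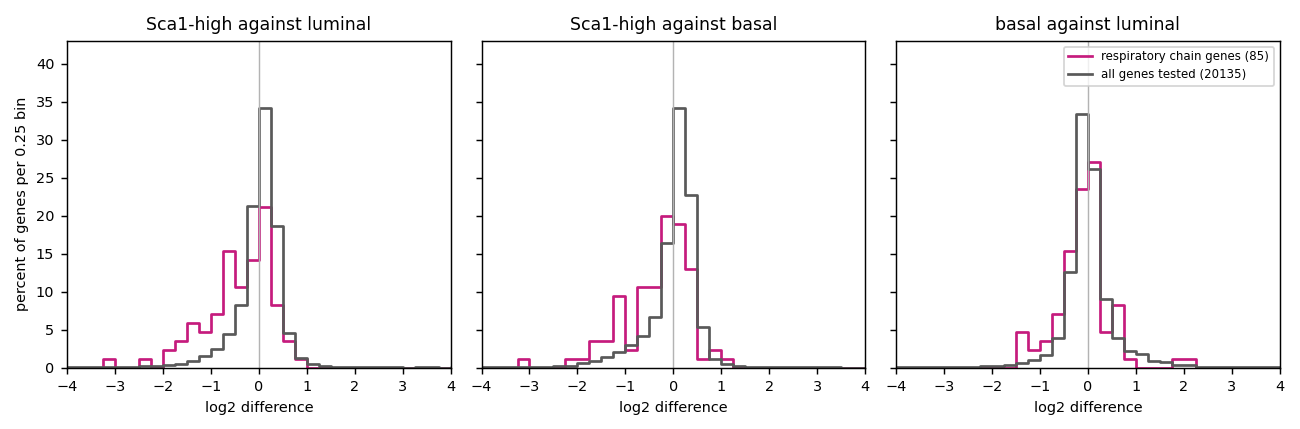
Distribution of the log2 differences of the 85 members and of all 20135 genes for the 3 gate comparisons, as percent of genes per bin of 0.25. The members lie to the left of all genes for Sca1-high against luminal (median -0.29 against 0.07) and Sca1-high against basal cells (-0.13 against 0.11), and close to them for basal against luminal cells. Members and all genes are not matched for signal.

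The LY6D+ Sca1-high library of mouse 5 held the lowest signal of the 12 libraries for 26 of the 85 members (30.6%), against 8.64% of all genes. The next was the LY6D- basal library of mouse 3, lowest for 12 members (14.1%, against 6.61% of all genes). Dim genes have less room to fall than bright ones, and the shares that follow are not matched for signal. The member median ran from 5.19 to 6.41 over the 12 libraries, and that of all genes from 4.12 to 4.36. In 9 members (10.6%, against 0.725% of all genes) the LY6D+ Sca1-high library of mouse 5 lay more than 1 log2 unit under the next lowest library, and in 5 (5.88%, against 0.169%) more than 2. These 5, named after their values were seen, were Ndufb9 and Ndufa3 of complex I, Cox6a1, Atp5e and Atp5g2, a further precursor of the c subunit. Ndufb9 read 3.54 there and at least 6.89 elsewhere, and Ndufa3 read 2.82 there and at least 5.99 elsewhere. Atp5g2 read 4.11 there and at least 6.29 elsewhere. The second probe sets of Atp5e (4.99 there, at least 8.33 elsewhere) and Atp5g2 (5.40 there, at least 6.37 elsewhere) were lowest in the same library. Other members were highest of the 12 in it, 6 in all, among them Ndufs5 (4.62). The luminal keratin genes Krt8 and Krt18 read 6.48 and 5.30 in this library, against at least 8.45 and 10.02 elsewhere. Whether the cell content of the library bears on the members' low values was not tested.

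Between LY6D+ and LY6D- cells, more members read higher in LY6D+ basal cells than lower, and none passed the threshold. In basal cells 70 of 85 members had a difference above 0 (median 0.39), against 53.4% of all genes (median 0.02). limma called 0 members and 0.00993% of all genes there, and 3 members, all higher, had an unadjusted p under 0.05 (2.20% of all genes in either direction, and 1.12% higher). Both mouse pairs were higher in LY6D+ cells for 45 members (52.9%), against 27.8% of all genes, and both lower for 2 (2.35%), Sdhd and Ndufb11, against 22.8%. The pair medians were 0.42 in mouse 3 (66 members above 0) and 0.23 in mouse 5 (62 above 0). The median over the gate was 0.39 after centring, 0.22 after quantile normalization (65 above 0) and 0.42 without the 3 libraries of mouse 5 that stand apart. Without the LY6D- basal library of mouse 3, the second lowest of the 12 in its member median, it was 0.19 with 56 of 85 above 0, against a median of 0.08 for all genes.

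The count was spread over the roles, with the complex I core and complex II at an even split. Differences above 0 were found for 24 of 28 accessory subunits of complex I, 7 of 7 assembly factors, 6 of 7 members of complex III, 12 of 16 of complex IV and 16 of 17 of complex V. They were found for 3 of 6 core subunits and 2 of 4 subunits of complex II. The assembly factors counted include the dim Ndufaf1, Ndufaf5 and Ndufaf7. Ndufb8, a membrane-arm subunit of complex I, read 5.97 and 5.93 in LY6D+ against 4.98 and 4.76 in LY6D- basal cells of mice 3 and 5 (1.08 ± 0.33, limma adjusted p = 1.00). Ndufa6 read 8.67 and 7.81 against 6.06 and 7.39 (1.51 ± 0.47), and Atp5h 10.64 and 8.26 against 8.29 and 7.91 (1.35 ± 1.04). The LY6D+ and LY6D- libraries of Ndufb8 and Ndufa6 did not overlap. For Atp5h, mouse 3 gave 2.35 and mouse 5 gave 0.35.

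Endothelial markers moved with LY6D in the basal gate. The median of the 8 markers was 4.11 and 4.78 in LY6D+ and 7.97 and 7.62 in LY6D- basal libraries of mice 3 and 5, and 8 of 8 were lower in LY6D+ cells, 6 of them at an unadjusted p under 0.05. The endothelial cadherin gene Cdh5 read 4.26 and 5.88 in LY6D+ and 9.78 and 9.33 in LY6D- cells. The median of the 8 basal markers was 6.87 and 7.74 in LY6D+ against 6.37 and 7.78 in LY6D- cells. The part of these markers in the members' difference was not tested.

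In the other gates the members showed no such count. In Sca1-high cells 32 of 85 lay above 0 (median -0.16), against 45.3% of all genes. limma called 0 members and 0% of all genes, and 4 members had an unadjusted p under 0.05 (2.41% of all genes). Both pairs were higher for 9 members and both lower for 24 (28.2%), against 20.2% and 27.6% of all genes. The pair medians were 0.02 in mouse 1 and -0.37 in mouse 5, and without the LY6D+ library of mouse 5 the median turned to 0.02. Ndufa1 shows the split, with 3.22 in mouse 1 and -3.20 in mouse 5. In luminal cells 43 of 85 lay above 0 (median 0.01), against 52.1% of all genes. limma called 0 members and 0% of all genes, and 4 members had an unadjusted p under 0.05 (3.56% of all genes). Both luminal pairs were higher for 19 members and both lower for 23 (24.0% and 20.5% of all genes).

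Over the 3 gates together 51 of 85 members lay above 0 (median 0.04), against 49.9% of all genes. That median turned to -0.04 without the LY6D+ Sca1-high library of mouse 1 and to -0.02 without the LY6D- basal library of mouse 3. Cox7a1 was the 1 member higher in LY6D+ cells in all 6 mouse pairs (1.45% of all genes were), and none was lower in all 6 (1.39%). Its pair differences were 0.90 and 0.09 in Sca1-high, 0.28 and 0.58 in basal and 0.73 and 4.12 in luminal cells. The last came from the LY6D+ luminal library of mouse 5, which read 7.64 where the other 11 libraries read 3.27 to 5.36. Over the gates Cox7a1 differed by 1.12 ± 0.39 (limma adjusted p = 1.00). Uqcrq, with -0.75 ± 0.27 over the gates and -1.66 ± 0.46 in luminal cells, was the other member of 2 with an unadjusted p under 0.05 over the gates (2.62% of all genes), where limma called 0 members and 0% of all genes.

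The difference of the LY6D effect between gates was tested as an interaction. limma called 0 members and 0% of all genes in each of the 3 interactions. At an unadjusted p under 0.05 there were 7 members for basal minus luminal, all higher (8.24%, against 2.45% of all genes in either direction and 1.49% higher), 1 for Sca1-high minus luminal (2.92%) and 3 for Sca1-high minus basal (2.36%). The median over the members was 0.25, -0.21 and -0.51 for these 3 interactions. When single libraries were left out, the basal minus luminal median ran between 0.07, without the LY6D- luminal library of mouse 5 (0.10 for all genes), and 0.50. The Sca1-high minus luminal median ran between -0.48 and 0.0192, and the Sca1-high minus basal median between -0.79 and -0.29, each highest without the LY6D+ Sca1-high library of mouse 5.

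**Figure D5:**
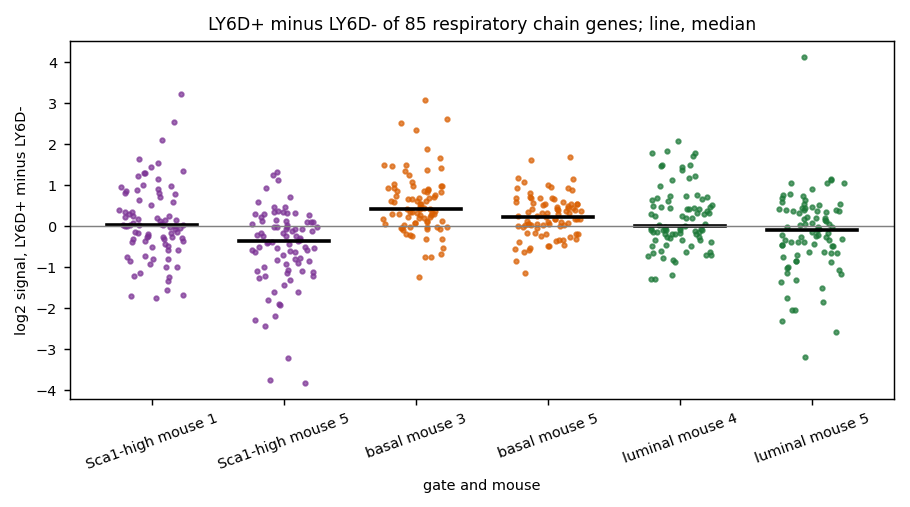
LY6D+ minus LY6D- log2 difference of each of the 85 members in the 6 mouse pairs, with a line at each pair's median. The 2 basal pairs lie mostly above 0 (medians 0.42 and 0.23), the Sca1-high pair of mouse 5 mostly below (-0.37), and the other 3 around 0.

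Several cytochrome c oxidase subunits exist as a broadly expressed form and a form restricted to heart, skeletal muscle, lung or testis. None of these forms passed the threshold in a gate comparison, and an exchange of forms was not tested. Cox4i1 averaged 8.83 ± 1.07 in Sca1-high, 9.46 ± 1.04 in basal and 9.65 ± 0.71 in luminal libraries, while Cox4i2, its lung form, averaged 4.79 ± 0.51, 4.67 ± 0.41 and 4.89 ± 0.25. Cox6a1 and its heart and muscle form Cox6a2 differed by -1.66 ± 0.78 and 0.57 ± 0.31 between Sca1-high and basal cells (limma adjusted p = 0.517 and 0.562). Cox6b1 and Cox6b2, the testis form, differed by -1.79 ± 0.48 and 0.12 ± 0.33 between Sca1-high and luminal cells. Cox7a1 and Cox7a2 differed by -1.45 ± 0.47 and -0.44 ± 0.77 between basal and luminal cells. Cox7b averaged 10.47 ± 0.75, 10.14 ± 0.45 and 10.40 ± 0.23 in Sca1-high, basal and luminal libraries, and Cox7b2, under the filter, averaged 2.32, 2.33 and 2.25. Cox8a, Cox8b and Cox8c differed by -0.52 ± 0.54, -0.00 ± 0.19 and 0.36 ± 0.18 between Sca1-high and basal cells. Ndufa4, since assigned to complex IV, and its relative Ndufa4l2 differed by -0.59 ± 0.71 and 0.11 ± 0.18 between Sca1-high and luminal cells. Without the LY6D+ Sca1-high library of mouse 5 Cox8a turned to 0.21 and Ndufa4 to 0.32 in these comparisons. All adjusted p-values of these genes in the gate comparisons were 0.327 or higher.

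Some genes of the chain lie outside the members because they share a probe set. Shared probe sets are described for the families of Ndufs6 and Ndufb4, chosen after their values were seen and lowest of the shared sets in Sca1-high against basal cells. Among the others, the probe set of Ndufb2 and Adck2 differed by 0.40 between these gates. Those of Cox6c differed by 0.02 and -0.83, and that of Uqcr10 by -0.56. The brighter of the probe sets shared by Ndufs6 and Ndufs6b read 9.55, 3.42, 6.35 and 3.32 in Sca1-high, 9.97, 9.29, 8.50 and 9.75 in basal and 7.72, 7.94, 3.82 and 8.82 in luminal libraries. Both Sca1-high libraries of mouse 5 were low, and a luminal one of mouse 4 was too. The probe set shared by Ndufb4, Ndufb4b and Ndufb4c averaged 4.69 ± 0.76 in Sca1-high, 6.08 ± 0.79 in basal and 6.16 ± 0.29 in luminal libraries. Which of the sharing genes gave these signals cannot be read from them, and they were not tested.

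Other genes of energy metabolism were read from lists chosen for their place beside the respiratory chain, with earlier results of these data known. Between Sca1-high and basal cells 64.2% of all genes lay above 0, and 9.83% had an unadjusted p under 0.05. The lists are not matched to all genes for signal. Between Sca1-high and basal cells all 12 genes of the TCA cycle, which supplies NADH and succinate to the chain, lay below 0 (median -0.97, 0 called, 3 at an unadjusted p under 0.05), as they did without the LY6D+ Sca1-high library of mouse 5 (-0.77). Dlst, a subunit of the oxoglutarate dehydrogenase complex, differed by -1.87 ± 0.29 (limma adjusted p = 0.164), Ogdh of the same complex by -1.31 and malate dehydrogenase Mdh2 by -1.45. All 13 glycolysis genes lay below 0 as well (median -0.68, 0 called, 5 at an unadjusted p under 0.05), led by pyruvate kinase Pkm (-1.52 ± 0.33, limma adjusted p = 0.209), hexokinase Hk2 (-2.37) and the glucose transporter Slc2a1 (-1.83). Without the LY6D+ Sca1-high library of mouse 5 the glycolysis count was 9 of 13 below 0 and the median -0.30. Among the mitochondrial carriers and channels 10 of 12 lay below 0 (median -0.09), with Vdac1 of the outer membrane at -1.62 (limma adjusted p = 0.204), the adenine nucleotide carrier Slc25a5 at -1.60 and the phosphate carrier Slc25a3 at -1.02. The median of the 12 carriers was -0.21 without the LY6D+ Sca1-high library of mouse 5, again with 10 below 0.

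Between basal and luminal cells, most genes of protein import into mitochondria and of glycolysis lay above 0. Of all genes, 45.8% lay above 0 there and 9.44% had an unadjusted p under 0.05. Of 16 import genes 12 lay above 0 (median 0.60, 0 called, 5 at an unadjusted p under 0.05), led by the translocase subunits Timm17a (1.38 ± 0.34, limma adjusted p = 0.175) and Tomm70a (1.53) and the chaperone Hspa9 (1.45). Without the 3 libraries of mouse 5 that stand apart the import median was 0.22, with 11 of 16 above 0. Glycolysis had 12 of 13 above 0 (median 0.20, 0 called), with Hk2 at 2.53 ± 0.59 (limma adjusted p = 0.153). Of the 16 regulators of mitochondrial biogenesis 12 lay above 0 (median 0.19), and of the 31 assembly factors of complexes II to V 12 did (median -0.14). Between Sca1-high and luminal cells 1 of 12 TCA cycle genes lay above 0 (median -0.49, and -0.43 without the LY6D+ Sca1-high library of mouse 5), as did 3 of 13 glycolysis genes and 2 of 12 carriers, in which Vdac1 differed by -1.85 (limma adjusted p = 0.134). Without that library 7 of 13 glycolysis genes and 4 of 12 carriers lay above 0. Of all genes, 59.8% lay above 0 between Sca1-high and luminal cells with every library kept. No member of these lists passed the threshold in a gate comparison over all 12 libraries.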

How the data were processed

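Per the labels' protocols, RNA of sorted cells was purified on columns and then amplified with NuGEN Ovation V2. Each deposited value is a log2 signal of a probe set. RMA and oligo are named, without version, in the submitters' processing notes. The genome build is not given in the sources used here. Values ran from 0.695 to 14.3 and entered the fits unchanged.

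Of 41345 probe sets, 23521 had a single symbol. A gene was tested if its signal exceeded 2.98, the lower quartile of all values, on 2 or more arrays. limma 3.58.1 in R 4.3.3 fitted a mean for each of 6 groups, with 6 residual and 3.28 prior degrees of freedom. Gate comparisons averaged the LY6D+ and LY6D- groups, and LY6D comparisons and their interactions used the same fit. The threshold was an adjusted p of 0.05. The script was tested on simulated data. Promoters were searched in Python 3.11.15.

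The same number marks the same mouse. The deviations of paired libraries from their group means correlated at 0.149 (Sca1-high), 0.407 (basal) and 0.0220 (luminal), and mouse entered only the alternatives, as a fixed or random block. With the fixed block, gate differences come from mouse 5 alone. Other alternatives were centring, quantile normalization, other filters, the mean of a gene's probe sets, only the groups compared, array weights, a trended robust fit, and leaving out libraries.

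Genes were named by a rule: in each role and gate comparison the member with the largest difference each way, any member past the threshold, the isoform pairs, in each LY6D comparison the 3 largest differences each way among members alike in every pair, and up to 3 genes per related list. Others are named where counts are small or after their values were seen, among them those in the plots. Members follow the symbol rule, and the lists were chosen with earlier results of these data known.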

Additional observations from a re-analysis of the deposited data

Results flagged for a closer look

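In 7 of 150 groups of 4 libraries (a named member in a gate), 1 library stood apart from the other 3 by Dixon's criterion, which chance would give in about 5% of groups. In the Sca1-high gate these were Ndufaf4 in the LY6D- library of mouse 5 (7.21), Ndufa11 in the same library (5.02), Cox4i1 in the LY6D+ library of mouse 1 (10.44) and Ndufs5 in the LY6D+ library of mouse 5 (4.62), each the highest of its 4. In the basal gate Atp5h was highest in the LY6D+ library of mouse 3 (10.64) and Cox6a1 lowest in the LY6D- library of mouse 3 (9.97). In the luminal gate Ndufa9 was highest in the LY6D- library of mouse 5 (5.70). No difference of the LY6D effect between gates passed a test for any member.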

How the results depend on the processing

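Of 24 settings, 12 leave out 1 library each. A further setting, without the LY6D+ Sca1-high library of mouse 5, repeats 1 of these 12. Over all settings the count of members past the threshold stayed at 0 for basal against luminal cells and for each LY6D comparison. With mouse as a fixed replicate block, where gate differences come from mouse 5 alone, it was 1 for Sca1-high against basal cells (Cox5b). With single libraries left out, members passed for Sca1-high against luminal and against basal cells. Such fits leave 1 library in a group, so only their effect sizes are given. Without the LY6D+ Sca1-high library of mouse 1, Atp5e differed by -2.78 between Sca1-high and basal cells. The median Sca1-high minus luminal LY6D effect ran from -0.48 to 0.0192. The block changed no other call of a member. Among the 59 named genes' results, those of Atp5e, Ndufa1 and Ndufa11 passed the threshold only under a setting that left out a library. In each of them that library was the one of its gate that ran most against the difference.

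Signs that turned belonged to small or uneven differences. For Ndufs1, Sca1-high against luminal cells gave -0.0412 centred, -0.0529 quantile normalized, -0.25 with the fixed and -0.0262 with the random replicate block, and Uqcr11 was -0.16 with the fixed block. For basal against luminal cells Ndufs7 was -0.0749 quantile normalized and -0.12 with the fixed block, Sdha 0.33 with the fixed block, and Sdhd -0.00299 without the 3 libraries of mouse 5 that stand apart. Ndufs8 was -0.74 for Sca1-high against basal cells with the fixed block. For LY6D, Cox6a1 was 0.63 in Sca1-high cells without the LY6D+ library of mouse 5, and Atp5h 0.13 in luminal cells without the 3 libraries. With single libraries left out, Ndufs7 ran from -0.16 to 0.25 and Sdha from -0.55 to 0.39 (basal against luminal), Ndufs1 from -0.0742 to 0.10 and Uqcr11 from -0.15 to 0.84 (Sca1-high against luminal), and Ndufs8 from -0.37 to 0.83 (Sca1-high against basal). For LY6D the ranges were -2.96 to 0.13 for Atp5h in luminal, -0.29 to 0.0866 for Ndufb11 and -0.95 to 0.33 for Sdhd in basal, and -3.42 to 0.63 for Cox6a1 in Sca1-high cells. The causes were not tested.

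The counts of members at an unadjusted p under 0.05 and without overlap, and the role and list counts, were recomputed without libraries under settings chosen after seeing the data. Without the 3 libraries of mouse 5 that stand apart, 11 members were lower and 3 higher in Sca1-high than in luminal cells (3.86% and 2.80% of all genes), and 2 lower and 2 higher than in basal cells (2.83% and 1.91%), the last 2 shares near those of all genes. Over all genes, the calls for basal against luminal cells numbered 84, with 31 after centring and 0 without those 3 libraries.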

Other observations

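Beside the respiratory chain, other mitochondrial lists were read for LY6D+ against LY6D- basal cells, where 53.4% of all genes lay above 0. Of 16 genes of protein import 13 lay above 0 (median 0.35), with the receptor subunit Tomm22 at 1.64 ± 0.49 (limma adjusted p = 1.00). Of 7 mitochondrial antioxidant genes 6 lay above 0 (median 0.46), with the superoxide dismutase Sod2 at 1.61 ± 0.82. Of 13 glycolysis genes 11 lay above 0 (median 0.21). The TCA cycle was split evenly, with 6 of 12 above 0, and of the 31 assembly factors of complexes II to V 12 were above 0 (median -0.08). None of these genes passed the threshold there, and the endothelial markers that were higher in the LY6D- basal libraries apply here as well, their part not tested.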
